A study of Homo sapiens with 6 samples.

Results

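The immediate early and AP-1 genes FOS, FOSB, FOSL1, FOSL2, JUN, JUNB, JUND, ATF3, EGR1 and IER2 were taken by name from an expression table of RKO cells, 10 genes of 58735 in the table. RKO is an established human colorectal carcinoma line. Its RNA was sequenced in 3 libraries of control cells carrying the lentiviral vector (Vector) and in 3 libraries of cells stably overexpressing the long noncoding RNA LOC101927668 (LOC_OE), to find the genes that differ between them. Both lines were selected with puromycin and grown in medium with fetal bovine serum. The labels call the 3 libraries of each group biological replicates. Whether the lines are single clones, and how long before harvest the medium was last changed, is not given in the sources used here.

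Immediate early genes are switched on within minutes of a growth factor, serum or stress signal, from factors already present in the cell, and most of their transcripts are short-lived. FOS, FOSB, FOSL1 and FOSL2 encode the FOS proteins, and JUN, JUNB and JUND the JUN proteins. A FOS protein cannot pair with itself and binds DNA as a dimer with a JUN protein, and this dimer is AP-1. JUN proteins also pair with each other and with ATF proteins such as ATF3. EGR1 is a zinc finger factor that does not belong to AP-1, and IER2 is another short-lived early response gene. Colorectal carcinoma cells with active RAS or RAF signalling often hold FOSL1 high without a pulse of serum.

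The stretches upstream of EGR1, FOS and JUND, the genes with the largest differences between the groups, show which early response elements sit there. The CArG box binds serum response factor, the CRE (TGACGTCA) binds CREB, ATF and JUN proteins, and the shorter TGACG is one side of a CRE. The sequences are from RefSeq on GRCh38.p14, on the strand of the gene, and 9 of the 10 genes had at least 1 entry there. Capitals mark CArG boxes, CRE and TGACG matches on either strand, and CCAAT boxes. The EGR1 stretch is chr5:138465229-138465478 on the plus strand, the JUND stretch chr19:18281623-18281872 on the minus strand and the FOS stretch chr14:75278578-75278773 on the plus strand. All 3 lie before the start of the gene in GENCODE version 29.
EGR1: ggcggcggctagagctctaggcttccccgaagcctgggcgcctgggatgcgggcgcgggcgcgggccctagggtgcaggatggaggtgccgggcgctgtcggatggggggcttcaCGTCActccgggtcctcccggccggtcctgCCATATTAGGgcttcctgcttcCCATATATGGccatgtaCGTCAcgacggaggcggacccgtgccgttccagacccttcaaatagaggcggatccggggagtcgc
JUND: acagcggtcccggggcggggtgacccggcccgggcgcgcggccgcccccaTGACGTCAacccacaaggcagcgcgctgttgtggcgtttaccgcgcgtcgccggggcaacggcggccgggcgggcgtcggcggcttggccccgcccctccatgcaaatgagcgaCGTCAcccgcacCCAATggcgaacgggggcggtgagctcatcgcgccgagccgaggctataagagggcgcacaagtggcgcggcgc
FOS: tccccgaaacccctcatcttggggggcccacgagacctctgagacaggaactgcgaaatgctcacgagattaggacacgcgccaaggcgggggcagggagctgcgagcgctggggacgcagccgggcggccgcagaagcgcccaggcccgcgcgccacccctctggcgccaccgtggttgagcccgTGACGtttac
The 250 bases before the RefSeq start of EGR1 held CArG boxes at 105 to 96 and at 83 to 74 bases before the start, and EGR1 was the 1 gene of the 9 with a match. Of 35116 promoter windows of this length in RefSeq, 1.16% held a CArG box. Bases farther upstream were not searched, so a box there, in FOS or another gene, would not be seen. JUND was the 1 gene with a whole CRE, found in 1.65% of all windows. TGACG on either strand, which the CRE contains, was in the windows of 8 of the 9 genes beside 21.2% of all windows, with ATF3 as the exception. These windows had a GC content of 44.8% to 74.8%, with a median of 58.0% over all windows. The AP-1 site TGACTCA was in none of the 9 and in 4.203% of all windows. EGR1 alone held the EGR site GCGNGGGCG (8.41% of all windows). JUN and ATF3 held the JUN-type site TGACATCA (2.37% of all windows), a sequence chosen after the windows had been read. In JUN it lies at chr1:58784096-58784125, given here on the minus strand with the site in capitals, inside the longer transcript that GENCODE gives to JUN.
JUN: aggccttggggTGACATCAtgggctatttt
These matches describe the letters of the windows. No binding was measured in these cells.

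**Figure D1:**
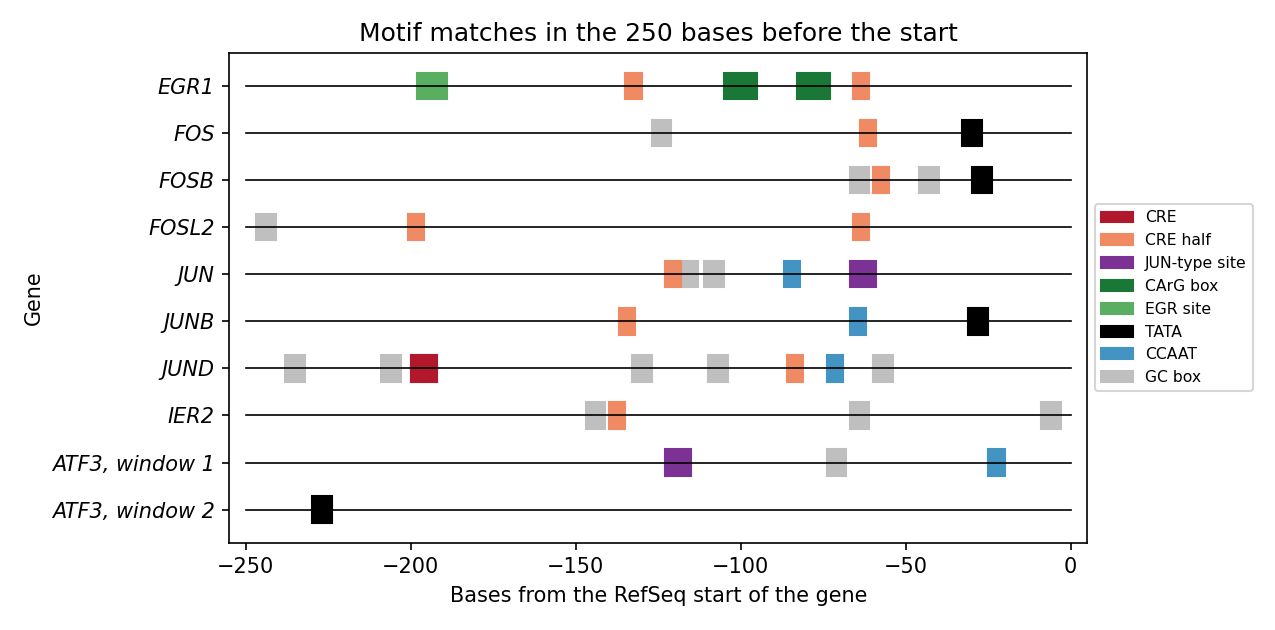
Motif matches, on either strand, in the 250 bases before the RefSeq start of each gene, with bases from the start on the x axis and 1 line per window (ATF3 has a pair of windows and FOSL1 none). Coloured boxes mark the matches, and EGR1 is the gene with CArG boxes within these windows.

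The libraries held between 15008842 and 18410231 reads on genes, recovered as whole numbers from the deposited FPKM (a level per length of gene and size of library) and the gene lengths. LOC101927668 had 1, 1 and 0 reads in Vector replicates 1 to 3 and 231, 270 and 276 in LOC_OE replicates 1 to 3. LOC_OE replicate 1 stood apart. Its log2 values correlated with those of LOC_OE replicates 2 and 3 at 0.967 and 0.962 over the tested genes, where other pairs within a group lay at 0.982 or 0.983. All 10 heat shock genes listed for comparison were above every Vector library in LOC_OE replicate 1, and 3 of the 10 were in each of LOC_OE replicates 2 and 3. Of 11 markers of colorectal epithelium, KRT8, KRT18, EPCAM and CDX2 had a mean above 1 FPKM, while CDH1 and CDX1 were listed at 0 in every library. Leukocyte markers summed to at most 1.25 FPKM and fibroblast and endothelial markers to at most 0.258 FPKM in any library.

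Genes were tested with limma on log2(FPKM + 1), and a gene was called where the adjusted p was under 0.05 and the change 1.5-fold or more. All 10 genes passed the filter on low values. The test called 3 of them, FOS and EGR1 higher and JUND lower in LOC_OE. Over the 16061 genes tested, 10.2% were called, 4.63% higher and 5.58% lower. JUN and JUNB also passed the adjusted p threshold with smaller changes, which makes 5 of 10 where 20.4% of all tested genes passed it. In all 10 genes the 3 LOC_OE libraries lay wholly above (4 genes) or wholly below (6 genes) the 3 Vector libraries, as they did for 45.3% of all tested genes. The median log2 fold change of the 10 was −0.28 and that of all tested genes 0.02. Without Vector replicate 2 only FOS of the 10 was called, and 249 genes were called over the whole table against 1639 with all libraries. With all libraries set to one FPKM sum, the median of all genes moved to −0.18, the calls over the whole table went from 743 higher and 896 lower to 259 and 1793, and 6 of the 10 genes were called, 2 higher and 4 lower.

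**Figure D2:**
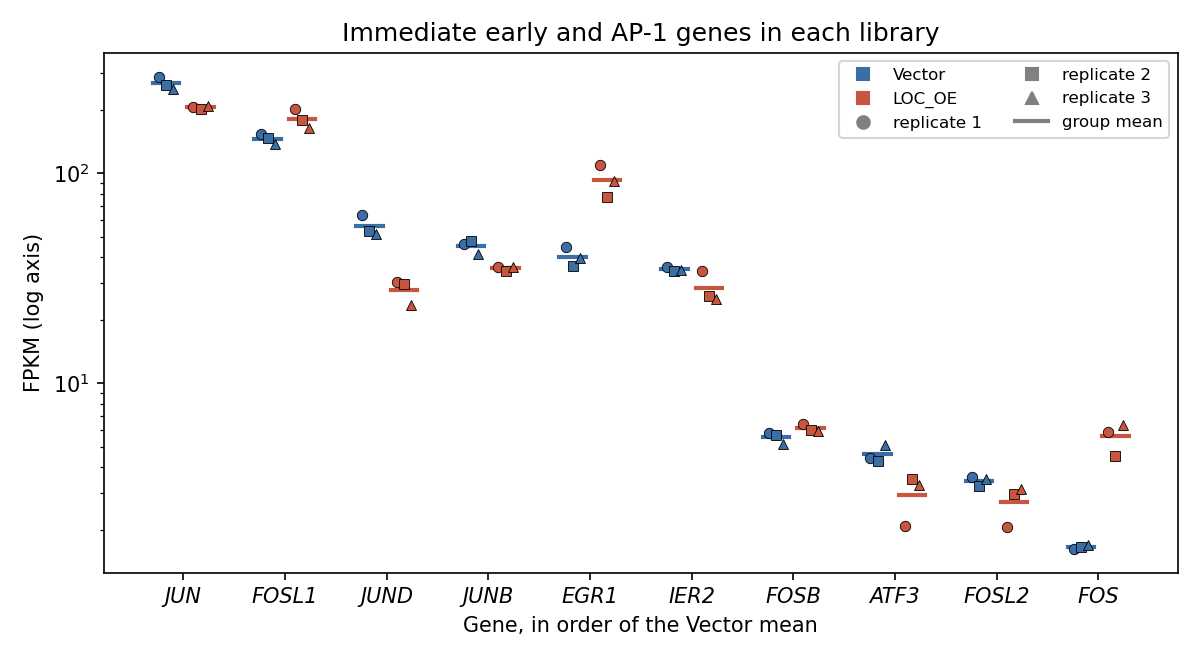
FPKM on a log axis for each gene in the 3 Vector and 3 LOC_OE libraries, with marker shape for the replicate and a bar for the group mean. FOS and EGR1 lie higher and JUND lower in every LOC_OE library, and the groups do not overlap for any of the 10 genes.

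FOS, the founding member of the FOS family and the gene whose product is nearly absent from unstimulated cells, was the least abundant of the 10 genes in Vector. Its FPKM was 1.63, 1.66 and 1.71 in Vector replicates 1 to 3 and 5.90, 4.53 and 6.35 in LOC_OE replicates 1 to 3. The Vector libraries were nearly equal, and the lowest LOC_OE library was well above them. These values rest on 99, 100 and 103 reads in Vector and on 306, 235 and 302 in LOC_OE. FOS rose 3.35-fold as a ratio of mean FPKM. On the log2(FPKM + 1) scale, which understates the change of a low gene, the difference was 1.29 (95% interval 1.00 to 1.59, adjusted p = 0.00422 from limma). It remained past the threshold in all 6 fits without 1 library. Without LOC_OE replicate 1, where the heat shock genes stood high, it was 1.26 (adjusted p = 0.00196 from limma).

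FOSL1, which encodes FRA-1, was by far the most abundant FOS family gene. It had 154, 148 and 138 FPKM in Vector and 202, 179 and 165 in LOC_OE, so that every LOC_OE library was above every Vector library. The log2 difference of 0.31 (95% interval 0.05 to 0.56) did not pass the threshold (adjusted p = 0.0901 from limma). With one FPKM sum for all libraries it was 0.046 (adjusted p = 0.645 from limma). Quantile normalization turned it to −0.044 (adjusted p = 0.679 from limma). It passed once LOC_OE replicate 1 was left out, at 0.23 (adjusted p = 0.0464 from limma).

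FOSB had 5.81, 5.65 and 5.14 FPKM in Vector and 6.45, 6.02 and 5.96 in LOC_OE. The groups were close, and the log2 difference of 0.13 had an interval of −0.07 to 0.32 (adjusted p = 0.301 from limma), and it turned to −0.095 with one FPKM sum for all libraries. FOSL2, which encodes FRA-2, had 3.57, 3.24 and 3.52 FPKM in Vector and 2.07, 2.99 and 3.14 in LOC_OE, with LOC_OE replicate 1 the lowest. Its log2 difference was −0.26 (95% interval −0.58 to 0.05, adjusted p = 0.201 from limma). The transcribed region of FOSB crosses that of ERCC1 on the other strand, but their exons share 0 bases in GENCODE.

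JUN was the most abundant of the 10 genes in both groups. It had 289, 264 and 252 FPKM in Vector and 207, 203 and 210 in LOC_OE. The LOC_OE libraries were close together (SD 3.50 FPKM), and all lay below the lowest Vector library. JUN fell by 0.37 on the log2 scale (standard error 0.091, adjusted p = 0.0355 from limma), less than the 1.5-fold threshold. The call on p was lost when low genes were kept in the fit (adjusted p = 0.0896 from limma) and in 5 of the 6 fits that left out 1 library. It held when LOC_OE replicate 1 was the library left out (adjusted p = 0.0120 from limma). With one FPKM sum for all libraries the log2 difference was −0.63 (adjusted p = 0.00675 from limma) and under quantile normalization −0.70 (adjusted p = 0.0112 from limma), past the 1.5-fold threshold in both.

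JUNB, a JUN protein that activates many AP-1 sites less strongly than JUN, had 46.1, 47.4 and 41.5 FPKM in Vector and 36.0, 34.4 and 35.8 in LOC_OE. It fell by 0.34 on the log2 scale (adjusted p = 0.0362 from limma), and this call too was lost in 5 of the 6 fits without 1 library. The difference was −0.59 both with one FPKM sum (adjusted p = 0.00720 from limma) and under quantile normalization (adjusted p = 0.0104 from limma), and JUNB was called lower there. HOOK2 on the other strand shares 259 of the 1820 exon bases of JUNB. HOOK2 had 3.43 FPKM in Vector and 2.72 in LOC_OE, and whether the counting used strand is not given in the sources used here.

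JUND, the JUN gene that resting cells usually keep on, had the largest decrease of the 10 genes. It had 63.5, 53.4 and 51.5 FPKM in Vector and 30.3, 29.9 and 23.5 in LOC_OE, and the highest LOC_OE library was far under the lowest Vector library. The ratio of means was 0.497. JUND fell by 0.99 on the log2 scale (95% interval −1.31 to −0.67, adjusted p = 0.00835 from limma). Without LOC_OE replicate 1 it fell by 1.05 (adjusted p = 0.00307 from limma). The fit without Vector replicate 2 was the only 1 of the 6 in which it missed the threshold (adjusted p = 0.0529 from limma, a log2 difference of −1.02).

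JUN, JUNB and JUND each have 1 exon, and all 3 were lower in LOC_OE. Of the 284 other protein-coding genes with 1 exon that were tested, 15 were called higher and 24 lower, with a median log2 fold change of −0.04. Of the 11009 with more exons, 536 were called higher and 540 lower, with a median of 0.05.

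EGR1 rose with FOS. It had 44.5, 36.2 and 39.5 FPKM in Vector and 109, 77.0 and 91.7 in LOC_OE, and the lowest LOC_OE library was well above the highest Vector library. The values rest on 2112 to 5478 reads, many more than those of FOS. The ratio of means was 2.31 and the log2 difference 1.18 (95% interval 0.82 to 1.53, adjusted p = 0.00747 from limma). It was 1.05 without LOC_OE replicate 1 (adjusted p = 0.00199 from limma) and 0.92 with one FPKM sum for all libraries. Without Vector replicate 2 it was 1.11 and just missed the threshold (adjusted p = 0.0509 from limma).

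ATF3, a stress-induced ATF protein that pairs with JUN, had 4.42, 4.27 and 5.08 FPKM in Vector and 2.09, 3.52 and 3.27 in LOC_OE, the lowest in LOC_OE replicate 1. Its log2 difference of −0.51 (95% interval −0.90 to −0.13) did not pass the threshold (adjusted p = 0.0668 from limma). It was −0.34 without LOC_OE replicate 1, and passed there (adjusted p = 0.0278 from limma). It also passed with one FPKM sum at −0.71 (adjusted p = 0.0429 from limma) and in limma voom at −0.67 (adjusted p = 0.0440). IER2 had 35.9, 34.4 and 34.5 FPKM in Vector and 34.3, 26.1 and 25.1 in LOC_OE. LOC_OE replicate 1 was next to the Vector libraries and the other two were lower. The log2 difference of IER2 was −0.30 (95% interval −0.61 to 0.01, adjusted p = 0.149 from limma) with all libraries. It was −0.44 with LOC_OE replicate 1 left out, and passed there (adjusted p = 0.00196 from limma). All libraries kept, it also passed with one FPKM sum at −0.55 (adjusted p = 0.00673 from limma) and under quantile normalization at −0.53 (adjusted p = 0.00527 from limma).

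**Figure D3:**
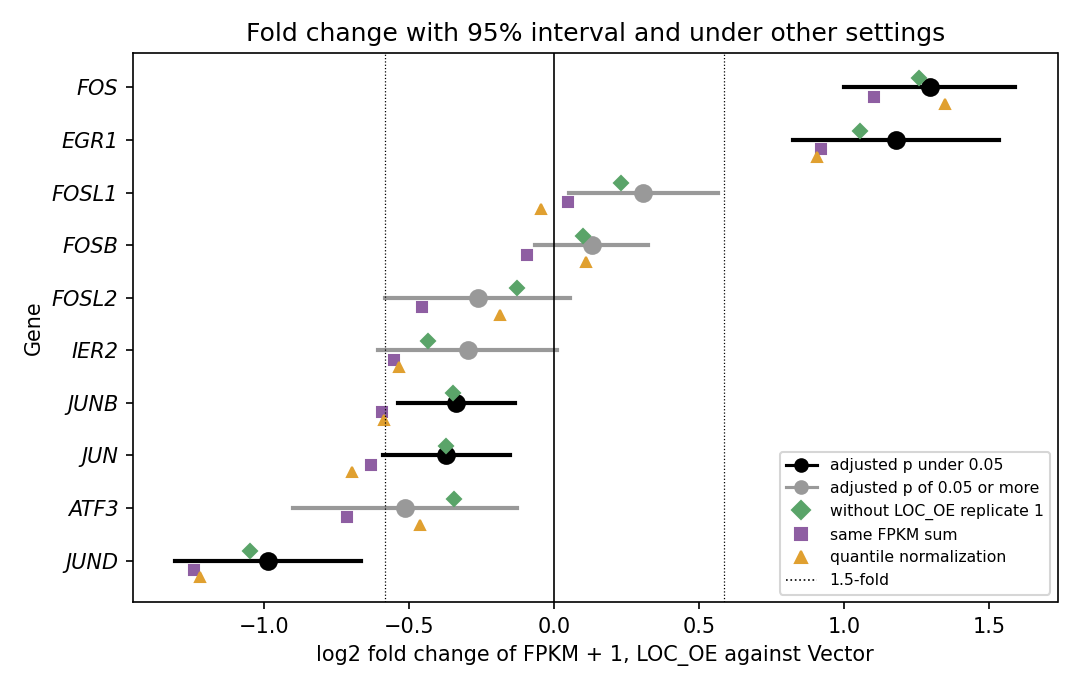
The log2 fold change of FPKM + 1 for each gene (LOC_OE against Vector, x axis) with its 95% interval, black where the adjusted p from limma was under 0.05. Coloured markers give the value without LOC_OE replicate 1, with libraries set to one FPKM sum and after quantile normalization, and they turn the sign of FOSB under the one sum and of FOSL1 under quantile normalization.

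The genes of each family were summed in FPKM to show the pool from which AP-1 dimers are made, as RNA. The FOS family summed to 165, 158 and 148 FPKM in Vector and to 216, 192 and 180 in LOC_OE. FOSL1 made up 91.4% to 93.3% of this sum in every library. FOS was 0.989% to 1.16% of it in Vector and 2.35% to 3.52% in LOC_OE, so the transcript that rose most stayed a small part of its family. The FPKM of all genes also summed higher in LOC_OE, to 305702 to 360434 against 264150 to 280648 in Vector. With one FPKM sum for all libraries the log2 difference of FOSL1 was 0.046, so a larger FOS family pool is not shown apart from this scale. The JUN family summed to 398, 365 and 345 FPKM in Vector and to 274, 267 and 269 in LOC_OE. Within it the share of JUND was 14.6% to 15.9% in Vector and 8.74% to 11.2% in LOC_OE, and the share of JUN was 72.4% to 73.0% and 75.8% to 78.0%.

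JUN family RNA was 2.42, 2.30 and 2.33 times FOS family RNA in the Vector libraries and 1.27, 1.39 and 1.49 times in the LOC_OE libraries. FOS alone was 0.564%, 0.630% and 0.678% of JUN in Vector and 2.85%, 2.23% and 3.02% in LOC_OE. A factor applied to a whole library does not change such a ratio of plain FPKM, but it does once 1 is added to each FPKM. With 1 added, the log2 ratio of FOS to JUN differed by 1.73 between the groups with one FPKM sum for all libraries. As deposited, the difference in log2((FOS FPKM + 1)/(JUN FPKM + 1)) was 1.67 between the groups, and the groups did not overlap (exact permutation test, two-sided, p = 0.10, where 3 against 3 libraries can give no smaller p). EGR1 was 21.8 to 27.3 times FOS in Vector and 14.4 to 18.5 times FOS in LOC_OE.

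**Figure D4:**
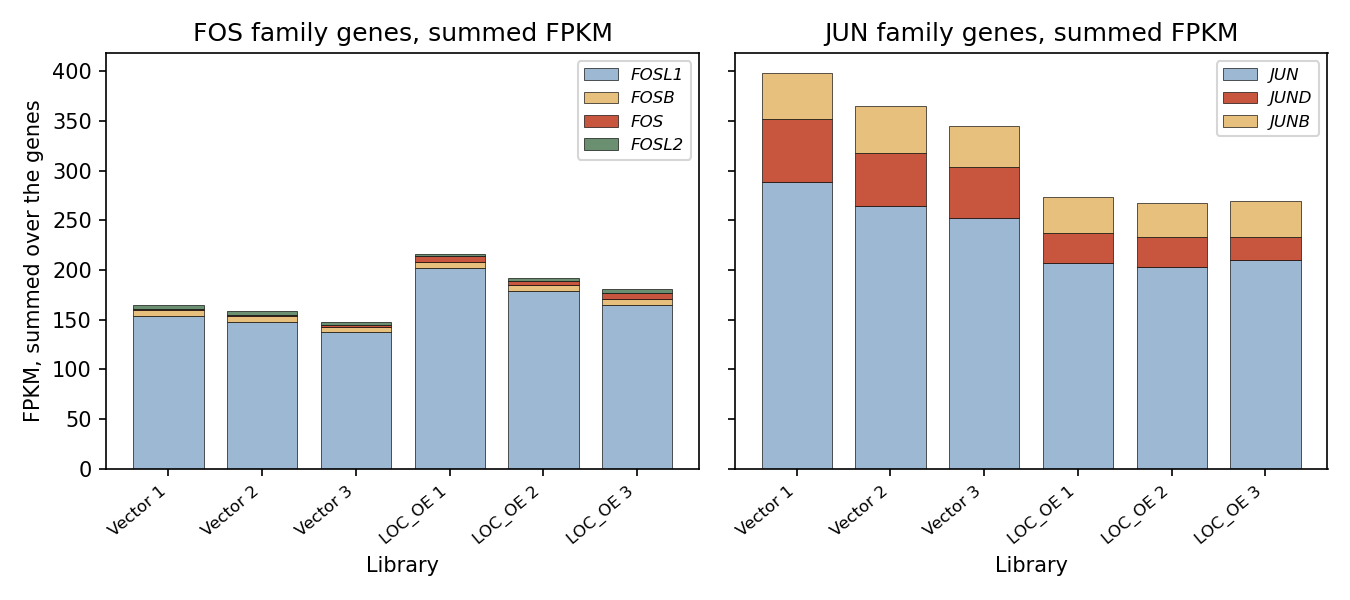
Summed FPKM of the FOS family (left) and the JUN family (right) in each library, with a colour for each gene and both axes starting at 0. FOSL1 fills most of the FOS family bars, and the JUN family bars are lower in the LOC_OE libraries, where JUND is narrower.

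Ranked by FPKM, the genes in Vector ran JUN, FOSL1, JUND, JUNB, EGR1, IER2, FOSB, ATF3, FOSL2 and FOS. Only JUNB and EGR1 overlapped among neighbours in this order. In LOC_OE the order was JUN, FOSL1, EGR1, JUNB, IER2, JUND, FOSB, FOS, ATF3 and FOSL2, and IER2 and JUND, FOSB and FOS, and ATF3 and FOSL2 overlapped. EGR1 moved from the fifth place to the third, JUND from the third to the sixth and FOS from the last to the eighth.

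For each called gene the most similar of 11293 protein-coding genes were found by the root mean square difference over the 6 libraries in log2(FPKM + 1), centred on the Vector mean. SOX9, MT1E and SEC63 lay nearest to FOS, at 0.08, 0.13 and 0.15. PAICS, RBM3 and EGR3 lay nearest to EGR1, at 0.08, 0.11 and 0.11. STAP2, FITM2 and NFKBIA lay nearest to JUND, at 0.07 each. The added 1 shrinks the change of a low gene, so genes near each other on this scale can differ in fold change. STAP2 went from a mean of 1.76 FPKM in Vector to 0.420 in LOC_OE, while the ratio of means of JUND was 0.497. EGR3, a relative of EGR1 with a like zinc finger domain, lay near EGR1 on this scale. It had 1.71, 1.62 and 1.86 FPKM in Vector and 5.84, 3.72 and 5.30 in LOC_OE. The ratio of means was 2.86 for EGR3 and 2.31 for EGR1. SOX9 encodes a transcription factor of intestinal crypt cells and MT1E a metallothionein.

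The other immediate early genes were a list of 35, of which 33 were tested. The test called 6 of them higher and 6 lower, with a median log2 fold change of −0.02. These calls are 36.4% of the genes tested from the list, beside 10.2% of all tested genes (4.63% higher and 5.58% lower). The early factors and regulators among them thus moved both ways, as FOS and JUND did. EGR3 rose by 1.11 on the log2 scale (adjusted p = 0.00829 from limma). IER3, a short-lived regulator of cell survival, rose from 25.3 ± 2.09 to 54.7 ± 9.34 FPKM (SD, n = 3 libraries each), and DUSP2, a phosphatase of MAP kinases, from 5.34 ± 1.43 to 13.4 ± 5.57. For DUSP2, LOC_OE replicate 1 was the highest at 19.8 FPKM, with 10.5 and 9.79 in the others. BTG2, an antiproliferative gene, fell from 31.6 ± 2.40 to 8.52 ± 1.18 FPKM. NR4A2, an orphan nuclear receptor of the early response, fell from 1.98 ± 0.143 to 0.670 ± 0.0762, and RHOB, a small GTPase, from 43.8 ± 4.94 to 24.9 ± 2.59. KLF10, CYR61 and TRIB1 were also called higher and NR4A3, KLF6 and DUSP1 lower, and these 6 are named because their calls were seen. Without Vector replicate 2 only BTG2 and NR4A2 were called, without Vector replicate 1 there were 7 calls and without Vector replicate 3 there were 6. With one FPKM sum for all libraries 4 were called higher and 9 lower, and under quantile normalization 4 higher and 6 lower. CYR61 and TRIB1 were not called in either of these.

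Members of the list that are classical serum response genes did not all move with EGR1. NR4A1 had a mean of 4.23 FPKM in Vector and 3.62 in LOC_OE (log2 difference −0.22, adjusted p = 0.495 from limma). ZFP36, which encodes a protein that binds AU-rich elements and speeds the decay of such transcripts, had 13.8 and 14.1 FPKM (adjusted p = 0.783 from limma). EGR2, another relative of EGR1, had 0.698 and 0.629 FPKM (adjusted p = 0.756 from limma). SRF, the factor that binds CArG boxes, had 19.3 and 24.3 FPKM, with a log2 difference of 0.31 (adjusted p = 0.0894 from limma). These 4 were picked for their roles after their values were seen.

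Of 28 other leucine zipper factors that can pair with FOS, JUN or ATF proteins or bind like sites, 23 were tested and 3 called, all higher, with a median log2 fold change of 0.11. This is 13.04% of the genes tested from the list, near the 10.2% of all tested genes, and the 3 genes are given by their own values. ATF4, the main factor of the integrated stress response, rose from 83.8 ± 2.45 to 187 ± 40.6 FPKM (SD, n = 3 libraries each). ATF5, a relative of ATF4, rose from 4.52 ± 0.378 to 11.4 ± 5.06, and LOC_OE replicate 1 was the highest at 17.2, with 8.27 and 8.69 in the others. ATF1, a relative of CREB, rose from 9.75 ± 0.381 to 18.7 ± 3.54. When Vector replicate 1, 2 or 3 was left out, limma called 0 of the list, and 4 passed an unadjusted p under 0.05 with a 1.5-fold change, among them these 3. Leaving out LOC_OE replicate 1 gave 5 calls, 4 higher and 1 lower.

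The kinases that act on JUN, FOS and the ternary complex factors, with those factors and SRF coactivators, were a list of 28. Of the 24 tested, limma called 0, beside 10.2% of all tested genes, and 0 also passed an unadjusted p under 0.05 with a 1.5-fold change. With one FPKM sum for all libraries 2 were called, both lower. A pseudocount of 0.1, quantile normalization, limma voom on the recovered reads and leaving out LOC_OE replicate 2 each gave 1 call, lower. With all libraries as deposited, the adjusted p was under 0.05 for 4 of the 24, beside 20.4% of all tested genes. Each of these 4 changed less than 1.5-fold. MAPK8, the JNK1 kinase that phosphorylates JUN, fell from 8.23 ± 0.259 to 5.33 ± 0.476 FPKM (SD, n = 3 libraries each). MAPK9, the JNK2 kinase, rose from 8.28 ± 0.279 to 11.7 ± 1.33, and MAP2K4, a kinase upstream of JNK, from 7.05 ± 0.116 to 9.81 ± 0.941. These 3 are named because their values were seen, and RNA levels do not measure the activity of a kinase.

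Of 26 genes with textbook AP-1 sites or dependence, 18 were tested and 8 called, 2 higher and 6 lower, with a median log2 fold change of −0.01. These calls are 44.4% of the genes tested from the list, beside 10.2% of all tested genes. The urokinase gene and its receptor gene rose. PLAU, the urokinase, had 16.7, 17.03 and 16.0 FPKM in Vector and 35.5, 44.2 and 47.6 in LOC_OE (log2 difference 1.295, adjusted p = 0.00397 from limma). Its receptor PLAUR rose from 27.9 ± 1.21 to 47.4 ± 2.60 FPKM (SD, n = 3 libraries each). With one FPKM sum for all libraries, and also under quantile normalization, PLAU was called higher and PLAUR was not called.

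Stromelysins, collagenase and interleukin 8 went the other way. MMP10 had 10.0, 9.28 and 9.51 FPKM in Vector and 0.213, 1.60 and 2.56 in LOC_OE (log2 difference −2.24, adjusted p = 0.0128 from limma). CXCL8, the interleukin 8 gene, had 5.04, 3.95 and 5.06 FPKM in Vector and 0.110, 0.439 and 0.419 in LOC_OE. MMP1 had 8.98, 7.22 and 8.02 FPKM in Vector and 0.951, 4.15 and 3.49 in LOC_OE, the lowest in LOC_OE replicate 1 for all 3 genes. HBEGF, LAMB3 and MMP3 were also called lower and are named because their calls were seen. The number of calls was between 2 and 9 in the fits without 1 library. It was 2 without Vector replicate 2 (HBEGF and PLAU), 3 without Vector replicate 3 and 4 without Vector replicate 1.

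The 10 heat shock genes, which stress raises together with immediate early genes, summed to between 938 and 1057 FPKM in Vector and to 2607, 1046 and 977 FPKM in LOC_OE replicates 1 to 3. The test called 1 of the 10 beside 10.2% of all tested genes. This was HSPD1, a mitochondrial chaperonin, which rose from 202 ± 14.4 to 397 ± 144 FPKM (SD, n = 3 libraries each), and the list had a median log2 difference of 0.44. Leaving out LOC_OE replicate 1 gave 3 calls, HSPD1 higher and HSPA1A and HSPB1 lower. With any Vector library or LOC_OE replicate 2 left out, limma called 0, and in each fit without a Vector library 1 gene, HSPD1, passed an unadjusted p under 0.05 with a 1.5-fold change.

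**Figure D5:**
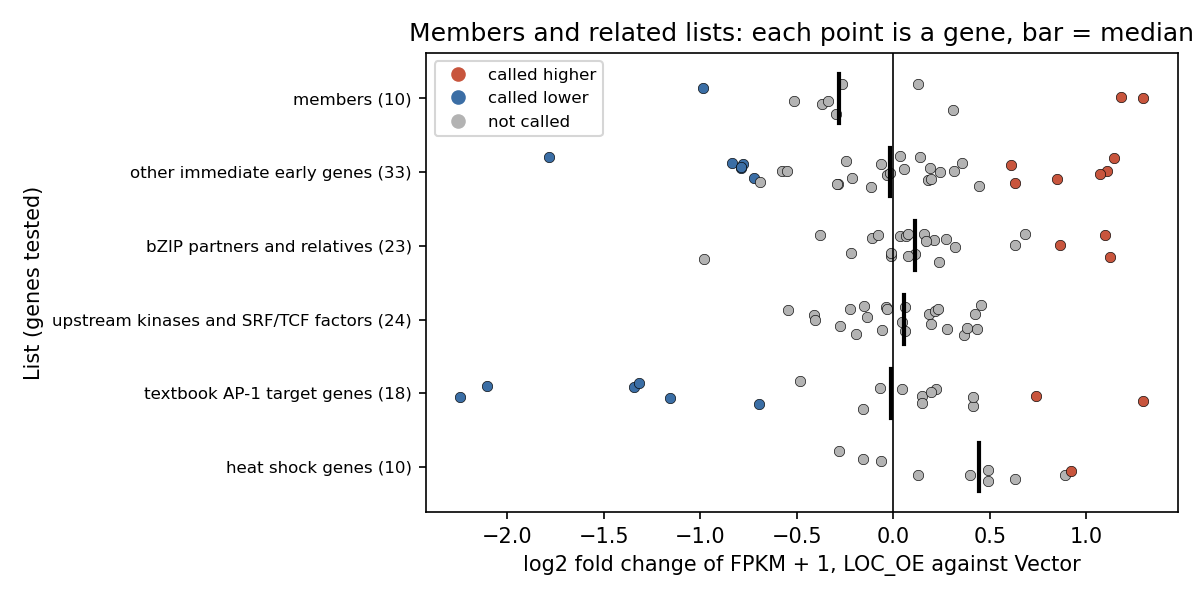
The log2 fold change of FPKM + 1 (LOC_OE against Vector, x axis) for each tested gene of the 10 members and the 5 related lists, with a bar at the median and colour for genes called higher or lower. The early gene and AP-1 target lists have calls on both sides, while the kinase list has none.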

How the data were processed

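RNA from RKO cells was sequenced in 3 Vector and 3 LOC_OE libraries (paired ends, TRIzol RNA), and groups were taken from the labels. The authors deposited 1 table of FPKM for 58735 genes and 6 libraries, and 0 columns were left unused. The submitters' processing notes list HISAT2 2.0.4, StringTie 1.3.0 and hg38, with no role or order. The strand setting of the counting is not given in the sources used here. All gene identifiers matched GENCODE version 29. FPKM times exon length gave whole reads (within 0.05) for 100% of values, with 15008842 to 18410231 reads a library, and the sizes the authors divided by followed median-of-ratios size factors.

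Genes that reached an FPKM of 0.5 in 3 or more libraries were fitted with limma 3.58.1 in R 4.3.3 on log2(FPKM + 1) with a variance trend, and p-values were adjusted by Benjamini-Hochberg over all 16061 tested genes. The steps were tested on simulated data. Alternatives were a pseudocount of 0.1, other filters, scalings and thresholds, no variance trend, limma voom, a replicate block and leaving out each library, with the filter applied again. Ratios were tested by an exact permutation test (SciPy 1.17.1), and figures were drawn with matplotlib 3.10.9. Promoter windows were the 250 bases before each RefSeq start on GRCh38.p14.

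The members and lists were chosen with earlier results of these data known. All 10 members are named, and from each list up to 3 genes called in each direction with the largest change, a mean of at least 1 FPKM and no overlap between groups. Marker genes at 1 FPKM or more, overlapping genes and the 3 nearest profiles of each called member are named too. Other genes are said to be named after their values were seen. The values of 1 listed gene are not reported here. In these bulk libraries fewer cells of a type and less RNA per cell cannot be told apart. Reads carry no molecular identifiers.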

Additional observations from a re-analysis of the deposited data

How the results depend on the processing

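Of 140 values of the 10 genes under alternatives, 138 kept their direction and 2 turned, FOSB to −0.095 with libraries set to one FPKM sum and FOSL1 to −0.044 under quantile normalization. FOS passed the adjusted p threshold in all 14 alternatives fitted for it. The number of the 10 genes called was 6 with the one FPKM sum, 5 under quantile normalization and 5 with no fold change threshold, and 1 to 3 in the fits without 1 library. Over the whole table, 3277 genes were called with no fold change threshold and 249 to 1650 without 1 library. The Vector libraries decided this, with 551, 249 and 391 genes when Vector replicate 1, 2 or 3 was left out. Voom on the recovered reads called 2365 genes. The cause of these changes was not tested. The FOS to JUN difference was between 1.59 and 2.05 in the alternatives, and 3 against 3 libraries cannot give a permutation p under 0.10.

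Whether the replicate numbers pair the libraries is not settled by the values. Deviations from the group means correlated at 0.111, −0.0338 and 0.116 for numbers 1, 2 and 3. Vector replicates 1 and 3 correlated best with their own number, and Vector replicate 2 did not. With the replicate number as a block, 1435 genes were called (696 higher and 739 lower), 3 of the 10 genes were called, and JUN and JUNB had adjusted p-values of 0.0600 and 0.0749 from limma. The exact p of the FOS to JUN difference was then 0.25, the smallest 3 pairs can give. FOS in Vector rests on 99 to 103 reads, the fewest of the 10 genes.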

Other observations

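AU-rich elements in the 3′ untranslated region mark many short-lived transcripts. In the GENCODE transcript with the longest coding sequence, 9 of the 10 genes held at least 1 AUUUA, beside 67.2% of the 11240 tested genes with such a region, and 7 held the longer UAUUUAU, beside 31.2%. FOS held 5 AUUUA in 806 bases, which is 6.20 per kilobase against a median of 1.503 over all genes. JUN held 3, FOSL2 9, EGR1 and JUND 1 each and IER2 0. FOS and EGR1, which rose, and JUND, which fell, all held AUUUA. EGR1 with 0.810 and JUND with 1.47 per kilobase were under the median of all genes, and EGR1 held 0 UAUUUAU.

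Within 1000000 bases of FOS 23 protein-coding genes other than the 10 were tested, of which 0 were called higher and 1 lower. Around EGR1 there were 18, with 1 called higher and 1 lower, and around JUND 48, with 0 higher and 5 lower. Over all tested genes, noncoding ones included, 10.2% were called. FOSB, JUNB, JUND and IER2 lie on chromosome 19, and JUNB (from 12791496) and IER2 (from 13150415) are near neighbours there, with log2 differences of −0.34 and −0.30.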
